A study of Danio rerio with 32 samples.

Results

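The transcripts of liver and skeletal muscle were compared in adult AB-strain zebrafish, all female, with a knockout of gys2, the gene of the liver form of glycogen synthase. The comparison took the 8 gys2 knockout liver libraries and the 8 gys2 knockout muscle libraries, 16 of the 32 libraries of the study, and all genes with at least 10 counts in 8 or more of those 16. The other 16 libraries came from wild-type females of the same strain, 8 livers and 8 muscles, and are used here only to show where the tissue difference in knockouts departed from that in wild type. All 16 knockout libraries share the gys2 lesion, so within them a plain tissue difference and an effect of the lesion that differs between the tissues cannot be told apart. Counts were of 3′ ends of polyadenylated transcripts, made by Lasy-Seq, a method in which each RNA is reverse transcribed with its own indexed primer and all products are pooled before the second strand is made. The age of the fish, the position of the lesion, and which liver and muscle came from the same fish were not stated in the labels.

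Liver and skeletal muscle both store glucose as glycogen, but they use it differently. The liver builds glycogen with gys2 after a meal, breaks it down between meals and releases free glucose into the blood, and it also makes glucose from lactate, glycerol and amino acids. Muscle builds its glycogen with gys1 and burns it within the fibre during contraction, because it lacks the glucose-6-phosphatase step that frees glucose. In laying fish the liver has a further task, the synthesis of vitellogenins, the yolk precursor proteins that the blood carries to the ovary.

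Of 31658 genes in the deposited table, 12778 passed the count minimum and were tested with edgeR's quasi-likelihood test. Differences are given as log2 of liver over muscle ± SE over 8 livers and 8 muscles, so that positive values are higher in liver, and p-values are adjusted by Benjamini-Hochberg over all 12778 genes. At an adjusted p under 0.05, 2564 genes (20.1%) were called higher in liver and 2593 (20.3%) higher in muscle. When a difference of at least 2-fold was tested, 1288 (10.1%) were called higher in liver and 790 (6.18%) higher in muscle. For 1132 genes (8.86%) every liver lay above every muscle, and for 894 (7%) every muscle lay above every liver. The counts behind a group of genes are read against these shares in what follows. A gene with under 10 counts in every muscle passed the minimum only with 10 or more in all 8 livers, and the reverse held for muscle genes. For such genes passing itself favoured that tissue, so their calls in the lists below are no separate support. Levels are CPM, counts scaled to a common library total, of the TMM-scaled library size, on which the median difference of all genes was -0.15. With library totals in place of TMM that median was -1.04, with 1285 genes called higher in liver and 8369 in muscle, so every direction given here is relative to the TMM scale.

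**Figure D1:**
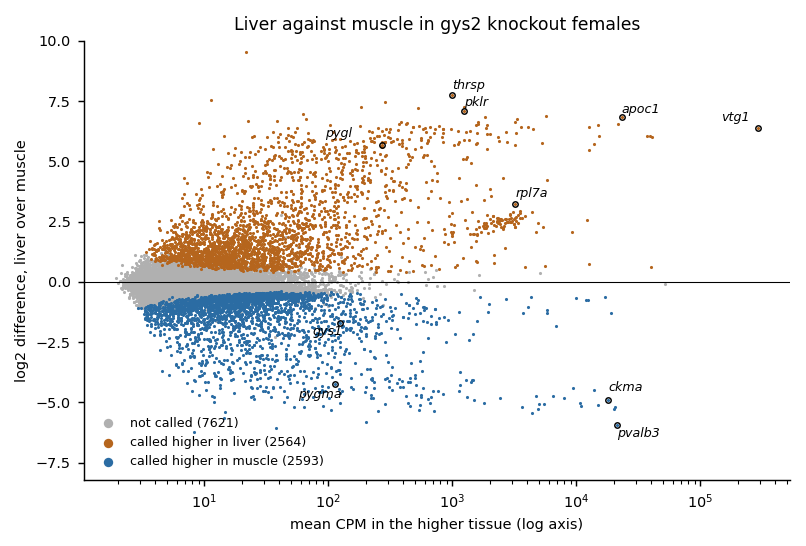
Difference between liver and muscle in gys2 knockout females for the 12778 genes tested, plotted as log2 of liver over muscle against the mean CPM of the higher tissue on a log axis. Each point is a gene, coloured where it was called at an adjusted p under 0.05; among the labelled genes the differences run from 7.76 toward liver (thrsp) to 5.93 toward muscle (pvalb3), and some genes of lower level lie beyond these.

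The libraries carried the markers of their labelled tissue, and each also held a low level of the other tissue's. Over 12 hepatocyte markers the summed level ran from 52000 to 120700 CPM in the livers and from 608.6 to 2870 CPM in the muscles. Over 12 muscle fibre markers it ran from 54200 to 106300 CPM in the muscles and from 1904 to 2774 CPM in the livers. None of the 24 markers was at 0 in any library. Muscle 6 stood apart: its hepatocyte markers lay at a median of 4.3% of the liver mean, against 0.826% to 1.1% in the other 7 muscles. Muscle fibre markers lay at 2.73% to 4.57% of the muscle mean in the livers. Library totals ran from 2562717 to 15351773 counts in knockout liver and from 2373329 to 3620243 in knockout muscle.

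**Figure D2:**
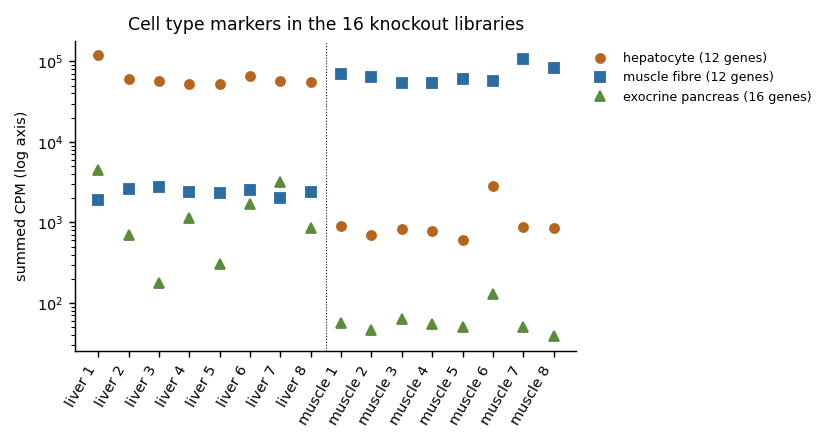
Summed CPM of 12 hepatocyte markers, 12 muscle fibre markers and 16 exocrine pancreas genes in each of the 16 libraries, on a log axis. Hepatocyte markers are highest in liver 1 among the livers and in muscle 6 among the muscles, and the pancreas genes spread from 175 to 4519 CPM over the livers.

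Levels in the other tissue were also read for the genes with large differences. Among genes with at least 100 CPM in the higher tissue that passed the 2-fold rule without overlap, 443 were higher in liver and 190 in muscle. The mean of such a liver gene in muscle was at a median of 6.31% of its liver mean and nowhere under 0.463%. For the muscle genes the liver mean was at a median of 8.43% of the muscle mean and nowhere under 1.64%. Muscle 6 was the highest muscle for 200 of the 443 liver genes (45.1%). Whether these low levels are transcripts of the tissue itself was not tested. In bulk tissue, fewer cells of a type and less RNA per cell cannot be told apart.

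Transcripts of gys2 were near the limit of detection in both tissues of the knockouts. The 8 livers held 1 to 19 counts of gys2, or 0.223 to 2.68 CPM (median 1.03), and the 8 muscles 1 to 12 counts, or 0.221 to 2.33 CPM (median 0.615). The ranges lie over each other, and the difference of mean log2(CPM + 0.5) was 0.206 (two-sided exact permutation test, p = 0.568, smallest possible p = 0.0001554). Wild-type livers held 6 to 37 counts at 3.61 to 19.3 CPM of library totals (median 11.7), against 0.172 to 2.49 (median 0.797) in knockout livers by the same measure, and wild-type muscles 0 to 3.43 (median 0.377). The level in knockout liver thus went with its label. A 3′ count reports the level of the transcript and not the lesion itself.

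The muscle synthase gys1 was present in both tissues. It ran from 32.1 to 44.0 CPM (median 37.3) in liver and from 94.4 to 152 CPM (median 121) in muscle. Every muscle lay above every liver, a 3.27-fold difference (-1.71 ± 0.17, adjusted p = 2.40e-09). Of 15 glycogen synthesis genes tested, 3 were called higher in liver and 4 in muscle, with a median difference of -0.22, shares near the backgrounds of 20.1% and 20.3%. Muscle was higher in gyg1b, a glycogenin that primes the glycogen chain (-4.76 ± 0.34, adjusted p = 6.40e-12), and in ppp1r3aa and ppp1r3ab, the subunits that target protein phosphatase 1 to muscle glycogen (-3.92 ± 0.33 and -3.34 ± 0.41). Liver was higher in the targeting subunits ppp1r3b (1.86 ± 0.44, adjusted p = 0.00190) and ppp1r3ca (1.17 ± 0.40, adjusted p = 0.0259) and in ugp2a, which makes the UDP-glucose that glycogen synthase uses (1.43 ± 0.42, adjusted p = 0.00705). The other 8 genes of the list did not pass the test. With library totals the calls of ppp1r3ca (0.22) and ugp2a (0.60) were lost, and that of ppp1r3ca was also lost without liver 4 (0.92, edgeR adjusted p = 0.0590) or liver 8 (0.99, adjusted p = 0.0543) and with no filter on low counts (adjusted p = 0.0602).

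Among the genes of glycogen breakdown, the tested phosphorylases divided by the known tissue forms of the enzyme. The liver phosphorylase pygl ran from 133 to 634 CPM (median 239) in liver and from 2.65 to 11.0 CPM (median 4.56) in muscle. The groups lay far apart, with liver 51.2-fold higher (5.68 ± 0.36, adjusted p = 1.24e-12). The muscle phosphorylase pygma showed the opposite, with 70.2 to 214 CPM (median 104) in muscle and 2.64 to 7.96 CPM (median 6.23) in liver (-4.22 ± 0.26, adjusted p = 3.11e-13). A second muscle form, pygmb, was higher in muscle by less (-1.02 ± 0.21, adjusted p = 0.000214). Of 11 breakdown genes tested, 2 were called higher in liver, a share near the background of 20.1%, and 5 in muscle, against a background of 20.3%. The muscle group took in the debranching enzyme aglb (-2.15 ± 0.24) and 2 subunits of phosphorylase kinase, phkg1a (-1.60 ± 0.17) and phkb (-1.82 ± 0.27), while the catalytic subunit phkg2, known from mammals as the liver form, was higher in liver (1.29 ± 0.33, adjusted p = 0.00232). With library totals phkg2 was not called (0.39, edgeR adjusted p = 0.299).

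Of 30 glycolysis genes tested, 6 were called higher in liver, a share near the background of 20.1%, and 18 in muscle, against a background of 20.3%, with a median of -1.08. The largest liver difference was that of pklr, the pyruvate kinase of liver. It ran from 393 to 4089 CPM (median 828) in liver and from 3.73 to 20.1 CPM (median 8.13) in muscle. No library of one group reached the other, and the highest values were those of liver 1 and muscle 6 (7.08 ± 0.58, adjusted p = 1.02e-08). Glucokinase, the low-affinity hexokinase of hepatocytes, varied widely: gck ran from 13.4 to 698 CPM (median 194) in liver and from 8.26 to 14.8 CPM (median 9.86) in muscle (4.64 ± 0.71, adjusted p = 5.36e-05). The lowest livers, livers 7 and 8, were at 13.4 and 17.3 CPM and lay beside the highest muscle at 14.8. On the muscle side the aldolases aldoab (-5.09 ± 0.23) and aldoaa (-4.72 ± 0.23), the pyruvate kinase pkmb (-4.06 ± 0.21), the phosphoglycerate mutase pgam2 (-4.15 ± 0.28) and the enolase eno1a (-3.37 ± 0.20) were called higher in muscle.

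Of 12 gluconeogenesis genes tested, 3 were called higher in muscle, a share near the background of 20.3%. In liver 8 were called higher, against a background of 20.1%, and the median was 2.22. Cytosolic and mitochondrial PEP carboxykinase, which turn oxaloacetate into phosphoenolpyruvate, were among the largest. The cytosolic pck1 ran from 27.1 to 628 CPM (median 209.8) in liver and from 1.55 to 5.25 CPM (median 2.29) in muscle (6.23 ± 0.60, adjusted p = 1.13e-07), and pck2 differed by 5.77 ± 0.56. The glucose-6-phosphatase genes g6pca.2 and g6pca.1 were higher in liver by 3.95 ± 0.25 and 5.64 ± 0.58; their reads may be split between near-identical copies. The transporter that brings glucose 6-phosphate to that enzyme, slc37a4a, was higher in liver (1.95 ± 0.21, adjusted p = 1.21e-08), and its duplicate slc37a4b was higher in muscle (-1.02 ± 0.17, adjusted p = 1.48e-05). Fructose bisphosphatase divided between fbp1b in liver (6.01 ± 0.76, adjusted p = 7.40e-06) and fbp2, the muscle form, in muscle (-4.36 ± 0.36, adjusted p = 3.19e-10). Without muscle 6 the difference of fbp1b was 7.20. The glucose carrier of hepatocytes, slc2a2, ran from 98.3 to 273 CPM (median 142) in liver and from 2.42 to 12.4 CPM (median 6.48) in muscle (4.58 ± 0.29, adjusted p = 4.08e-13). It was 1 of 3 called genes among the 7 tested for hexose entry and fructose use, against a background of 20.1%. The others were tkfc (1.90 ± 0.29) and khk (0.91 ± 0.28), both enzymes of fructose breakdown. The direction of khk turned with library totals (-0.01).

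Ratios of paired enzyme forms were taken within each library, with 0.5 added to the CPM of each form. Library scaling therefore cancels for forms at high levels but not fully for low ones, such as phkg2 and fbp2. How far the ratios move with scaling was not tested. The call of each form depends on scaling. Of 24 pairs of a form known from liver or most tissues and a form known from muscle, 19 had both forms tested. In 14 pairs the ratio of the first to the second form was higher in every liver than in every muscle. In 6 pairs the forms were called in opposite directions, among them phosphorylase (pygl and pygmb), the phosphorylase kinase gamma subunit (phkg2 and phkg1a), phosphoglycerate mutase (pgam1a and pgam2), fructose bisphosphatase (fbp1b and fbp2) and subunit 6a of cytochrome oxidase (cox6a1 and cox6a2). Of these, phkg2 lost its call with library totals, and after thinning (0.95, edgeR adjusted p = 0.0604). For phosphoglycerate mutase the log2 ratio of pgam1a to pgam2 ran from 1.57 to 2.53 in the livers and from -6.48 to -4.17 in the muscles. Enolase went against the naming: eno1a, the form of most tissues, was more muscle-biased (-3.37 ± 0.20) than eno3, the form named for muscle (-1.60 ± 0.25), and the log2 ratio of eno1a to eno3 ran from -6.34 to -4.47 in the livers and from -3.71 to -2.49 in the muscles. The heart and muscle fatty acid binding protein gene fabp3 was higher in liver. It ran from 452 to 1738 CPM (median 938) in liver and from 121 to 341 CPM (median 255) in muscle, without overlap (2.06 ± 0.27, adjusted p = 4.95e-07). The calcium pump atp2a2a, of slow fibres and heart in mammals, was also higher in muscle, at -4.69 ± 0.23 beside -4.54 ± 0.26 for the fast form atp2a1, and the ratio of these forms overlapped between the tissues.

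The pentose phosphate pathway, which makes NADPH and ribose, was higher in liver for 6 of 8 genes tested, against a background of 20.1%. The endoplasmic reticulum form h6pd ran from 37.2 to 157 CPM (median 69.9) in liver and from 3.73 to 12 CPM (median 4.63) in muscle (3.81 ± 0.34, adjusted p = 2.01e-09). The enzymes that interconvert pentoses, rpia (2.46 ± 0.23), rpe (2.23 ± 0.25) and tktb (4.17 ± 0.67), were also called, while the transketolase tkta was called higher in muscle (-0.70 ± 0.24, adjusted p = 0.0245). The call of tkta was lost without muscle 2, 3, 4, 5 or 6 or liver 3, at -0.64 to -0.47 (edgeR adjusted p = 0.0520 to 0.139), and tktb was at 3.43 without liver 1.

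Genes of secreted plasma proteins were higher in liver with 1 exception. Of 39 plasma and coagulation genes tested, 38 were called higher in liver and 1 in muscle, and of 16 apolipoprotein and lipase genes all 16 were called higher in liver, with medians of 5.83 and 5.78. The fetuin gene ahsg2 ran from 279 to 1471 CPM (median 355) in liver and from 0.893 to 10.7 CPM (median 2.94) in muscle (7.22 ± 0.55, adjusted p = 1.35e-09). Apolipoprotein C-I, a small protein of lipoprotein particles, ran from 19520 to 30410 CPM (median 22110) in liver and from 123 to 601 CPM (median 151) in muscle for apoc1 (6.82 ± 0.35, adjusted p = 8.06e-14), and the iron carrier transferrin, tfa, differed by 6.53 ± 0.43. In both genes muscle 6 was the highest muscle. Without muscle 6 the difference of tfa was 7.22 and that of ahsg2 7.84. That exception was serpinf1, a secreted serpin of connective tissue, which was higher in muscle (-2.59 ± 0.26, adjusted p = 3.77e-09).

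Innate defence genes were higher in liver in most but not all cases. Of 30 complement and antimicrobial genes tested, 23 were called higher in liver and 3 in muscle, against backgrounds of 20.1% and 20.3%. The C3 gene c3a.2 (6.18 ± 0.33), c8a and c8g of the pore that complement forms in membranes (6.27 ± 0.34 and 6.54 ± 0.36) and the factor H-like cfhl2 (5.60 ± 0.29) were among the liver genes. The acute-phase protein gene crp3 ran from 3519 to 8369 CPM (median 5392) in liver and from 28.9 to 142 CPM (median 38.0) in muscle (6.86 ± 0.36, adjusted p = 8.12e-14). Its 8 livers lay within a narrow band, unlike itln3, an intelectin that binds microbial glycans, which ran from 145 to 4956 CPM (median 377) in liver and from 4.17 to 14.3 CPM (median 7.23) in muscle (7.26 ± 0.90, adjusted p = 6.53e-06). Livers 7 and 8 were at 4956 and 2767 CPM of itln3 and the next liver at 809. The cerebellin-family gene cbln11 was highest in the same 2 livers, at 504 and 339.8 CPM against 0 to 4.77 CPM (median 0.790) in muscle (7.24 ± 0.72, adjusted p = 2.92e-07). Without muscle 6 the differences of cbln11 and c8g were 8.24 and 7.15, and without liver 7 that of itln3 was 6.47. The count of 3 complement genes higher in muscle ran from 0 to 4 when single libraries were left out, with 0 without muscle 4 or muscle 5.

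Yolk precursor genes were higher in liver in all 9 vitellogenesis genes tested. The 7 vitellogenin genes differed by 5.49 to 6.38, and reads of these near-identical genes may be split between copies. The most counted, vtg1, ran from 41160 to 475700 CPM (median 307900) in liver and from 2078 to 11540 CPM (median 2436) in muscle. The groups did not overlap, with liver 1 the lowest liver and muscle 6 the highest muscle (6.38 ± 0.60, adjusted p = 2.36e-07). Without muscle 6 the difference of vtg1 was 7.06. Vitellogenin transcripts took 5.44% of the counts of liver 1 and 19.15% to 41.83% of those of the other 7 livers. The estrogen receptor genes esr1 and esr2b, which mediate the induction of vitellogenins, were higher in liver by 3.70 ± 0.44 and 3.29 ± 0.28.

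Translation and secretion machinery was mostly higher in liver. Of 81 genes gathered as cytosolic ribosomal proteins, 79 were called higher in liver, against a background of 20.1%, with a median of 2.48. The 2 that were not called are rps8b (-0.89 ± 0.48) and rps6kal (0.31 ± 0.26), of which the second is a kinase that the name pattern took in. The large-subunit gene rpl7a ran from 1680 to 4765 CPM (median 3031) in liver and from 268 to 479 CPM (median 307) in muscle (3.23 ± 0.22, adjusted p = 1.64e-12). Liver 3 was the highest liver for 76 of the 81 genes and liver 1 the lowest for 79. This ranking is on the TMM scale, where the factor of liver 3, 0.5602, was the lowest of the livers and so raised its CPM. It was not repeated with library totals. Of 46 genes of the secretory pathway, 42 were called higher in liver and 4 were not called, with a median of 1.95. They included the translocon subunits sec61a1 (3.79 ± 0.26) and ssr3 (4.14 ± 0.27) and the disulfide isomerase pdia3 (3.82 ± 0.24). With library totals the medians were 1.59 and 1.04, with 2 genes of each list called higher in muscle. In that setting 78 of the 81 ribosomal genes and 30 of the 46 secretory genes were called higher in liver. Of 45 genes of the proteasome, which degrades proteins, 4 were called higher in liver and 2 in muscle. Both shares lay under the backgrounds of 20.1% and 20.3%. The median of 0.28 turned to -0.57 with library totals. Without muscle 5 the proteasome count in liver was 8.

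Lipid synthesis was higher in liver on average and varied widely among the livers. Of 17 cholesterol synthesis genes tested, 16 were called higher in liver, with a median of 4.35. Of 11 fatty acid synthesis genes, 7 were called higher in liver and 1 in muscle, with a median of 3.73. Summed over the 17 cholesterol genes, the livers ran from 346.4 to 8769 CPM and the muscles from 189.6 to 247.3, and livers 5, 7 and 8 were at 539.6, 402.1 and 346.4 CPM. Liver 2 was the highest liver for 13 of the 17 genes. Among the 16 called cholesterol genes the highest liver was a median of 39.6 times the lowest, against 2.99 among the 443 strong liver genes and 2.52 among the 79 ribosomal protein genes. The 443 were picked for lack of overlap with muscle and a high level, which can itself limit their spread. The cholesterol and ribosomal genes were taken by their calls alone. All livers lay above all muscles in 6 of the 17 cholesterol genes and 2 of the 11 fatty acid synthesis genes, against 8.86% of all genes tested.

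The HMG-CoA reductase gene hmgcra, the rate-limiting step of cholesterol synthesis, ran from 19.7 to 407 CPM (median 202) in liver and from 2.38 to 8.30 CPM (median 6.92) in muscle (4.96 ± 0.69, adjusted p = 1.99e-05). The LDL receptor gene ldlra ran from 26 to 552 CPM (median 139) in liver and from 2.42 to 11.3 CPM (median 7.62) in muscle (4.62 ± 0.49, adjusted p = 2.19e-07). Their regulator srebf2 was higher in liver by less (1.94 ± 0.28, adjusted p = 1.49e-06). The largest difference among the 443 strong liver genes was that of thrsp. This gene, known in mammals as a regulator of fatty acid synthesis, ran from 38.5 to 4881 CPM (median 207) in liver and from 2.15 to 9.69 CPM (median 4.11) in muscle (7.76 ± 1.14, adjusted p = 4.69e-05). Liver 1 was highest at 4881 CPM and liver 5 lowest at 38.5. The fatty acid elongase gene elovl6 ran from 7.76 to 878 CPM (median 50.6) in liver and from 1.59 to 8.30 CPM (median 4.09) in muscle, with overlap (5.45 ± 1.03, adjusted p = 0.000540), and the acetyl-CoA carboxylase gene acaca from 15.1 to 1013 CPM (median 70.7) in liver and from 3.81 to 16.1 CPM (median 11.1) in muscle, also with overlap (4.29 ± 0.89, adjusted p = 0.00113). Liver 1 was the highest liver for 7 of the 11 fatty acid synthesis genes. The desaturase gene fads2, by contrast, kept every liver above every muscle, at 839.6 to 2429 CPM (median 1619) in liver and 5.30 to 93.6 CPM (median 13.9) in muscle (6.17 ± 0.65, adjusted p = 6.01e-07). Malic enzyme, me1, which supplies NADPH for fatty acid synthesis, was called through liver 1: it stood at 296 CPM there and ran from 0.669 to 8.71 CPM in the other 7 livers, against 1.43 to 8.58 CPM (median 3.44) in muscle (3.35 ± 1.25, adjusted p = 0.0442). Without liver 1 its difference was -0.23 (adjusted p = 0.717). The call of me1 was also lost without any 1 of the 8 muscles (edgeR adjusted p = 0.0506 to 0.071), at 3.25 to 3.68. Without liver 1 the differences of thrsp, elovl6 and acaca were 6.61, 4.11 and 3.16, all still called, and without muscle 6 that of fads2 was 7.20. Without liver 1 the called counts were 14 of the cholesterol genes and 6 of the fatty acid synthesis genes. The minimum of 8 libraries was kept there, so a gene under 10 counts in every muscle could no longer be tested. Without liver 1 and muscle 6 together, 15 cholesterol genes were tested and 14 called. In that setting 11 fatty acid synthesis genes were tested and 6 called. The lower cholesterol count is therefore not read as calls lost through liver 1.

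**Figure D3:**
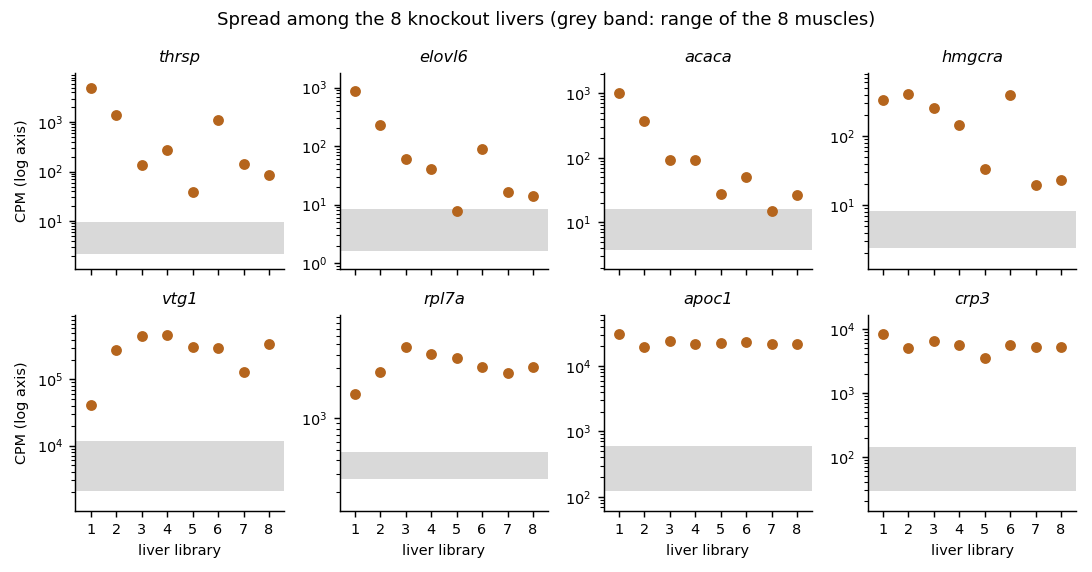
CPM on a log axis of 8 genes in each of the 8 gys2 knockout livers, numbered as in the labels, with the range of the 8 muscles as a grey band. Lipid synthesis genes (thrsp, elovl6, acaca, hmgcra) spread over 1 to 2 powers of 10 among the livers, while apoc1 and crp3 stay level; vtg1 and rpl7a are lowest in liver 1.

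Fatty acid breakdown did not lie on one side. Of 29 genes tested, 8 were called higher in liver and 11 in muscle, against 20.1% and 20.3% of all genes, with a median of -0.08. The liver genes included those of peroxisomes, with ehhadh (3.87 ± 0.28) and acaa1 (3.52 ± 0.34), the carnitine transferase cpt1aa (2.00 ± 0.36) and the ketone-body transferase oxct1b (5.32 ± 0.47, adjusted p = 9.43e-09). The muscle genes were mitochondrial, with acadvl (-1.98 ± 0.25), hadhaa (-1.85 ± 0.24), the duplicate carnitine transferase cpt1ab (-2.15 ± 0.27) and oxct1a (-2.48 ± 0.33, adjusted p = 4.11e-07). The oxct1 duplicates were thus called in opposite directions. The cytosolic fatty acid binding protein of hepatocytes, fabp10a, differed by 6.44 ± 0.61 and the adipocyte-type fabp11a by -3.14 ± 0.23. Without muscle 6 the difference of fabp10a was 7.44.

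Amino acid, bile acid and foreign-compound metabolism was mostly higher in liver. Of 45 amino acid and one-carbon genes, 28 were called higher in liver and 7 in muscle, with a median of 2.85. The backgrounds were 20.1% and 20.3%, so the muscle share lay under its background. The liver genes included cbsa, which makes cystathionine from homocysteine (4.87 ± 0.25), ahcy of the methionine cycle (5.17 ± 0.29), the histidase hal (5.21 ± 0.32) and the phenylalanine hydroxylase pah (5.15 ± 0.32). The aminotransferases got1 (-1.67 ± 0.22) and bcat2 (-1.61 ± 0.24) were among the 7 called higher in muscle. Of 38 xenobiotic genes, 34 were called higher in liver and 1 in muscle, with cyp2x8 at 6.67 ± 0.39 and gsta.1 at 4.13 ± 0.24, and the exception was the sulfotransferase sult1st2 (-2.31 ± 0.23, adjusted p = 2.89e-09). Of 12 bile acid genes, 9 were called higher in liver, among them the transporter slco1d1 (4.50 ± 0.30) and the carrier protein scp2a (4.76 ± 0.28), and 3 were not called. The transcription factors of hepatocytes were higher in liver in 8 of 16 tested genes, with hnf4a (3.16 ± 0.27), foxa2 (4.89 ± 0.46) and nr5a2 (2.87 ± 0.29), and tfeb, a regulator of lysosome genes found in many tissues, was the 1 called higher in muscle (-0.92 ± 0.21, adjusted p = 0.000702). Without muscle 6 foxa2 differed by 5.83, and without liver 8 the transcription factors called higher in muscle numbered 2. In muscle, cyp2x8 reached at most 0.477 CPM and foxa2 1.67 CPM, both under 10 counts, so both passed the minimum only through the livers. Without muscle 6 and liver 1 together, 33 xenobiotic genes were tested and 28 called higher in liver. In that setting 8 bile acid genes were tested and 6 called, and 13 transcription factors were tested and 6 called higher in liver.

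Contractile genes were higher in muscle with little exception. Of 42 fast sarcomere genes, 41 were called higher in muscle, against a background of 20.3%, and of 19 slow sarcomere genes 17 were called higher in muscle, with medians of -4.13 and -3.36. The fast regulatory light chain gene mylpfa ran from 233 to 366 CPM (median 308) in liver and from 6666 to 18420 CPM (median 9831) in muscle (-5.17 ± 0.23, adjusted p = 1.54e-15). The slow troponin I gene tnni1c ran from 3.74 to 9.17 CPM (median 5.58) in liver and from 137 to 427 CPM (median 259) in muscle (-5.36 ± 0.28, adjusted p = 1.46e-14). The groups were apart for both fibre types. Muscle 7 was the highest muscle for 81 of the 190 strong muscle genes and muscle 5 the lowest for 74, and the highest muscle was a median of 2.3 times the lowest. These rankings rest on the TMM factors, 1.056 for muscle 7 and 1.561 for muscle 5, and were not repeated with library totals.

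Calcium handling genes were mostly higher in muscle. The parvalbumin gene pvalb3, a calcium buffer that speeds the relaxation of fast fibres, ran from 269 to 466 CPM (median 338) in liver and from 13660 to 37460 CPM (median 20110) in muscle. Its difference of -5.93 ± 0.24, adjusted p = 5.85e-16 was the largest toward muscle among the genes of at least 100 CPM that passed the 2-fold rule without overlap. Of 32 calcium and excitation genes tested, 26 were called higher in muscle and 1 in liver. The exception was atp2a2b (2.05 ± 0.29, adjusted p = 2.70e-06), a duplicate of atp2a2a. Creatine kinase, which regenerates ATP from phosphocreatine, was represented by ckma, at 471 to 770.3 CPM (median 605) in liver and 14120 to 23170 CPM (median 17200) in muscle (-4.89 ± 0.19, adjusted p = 2.98e-16), and by the mitochondrial ckmt2b (-5.30 ± 0.24), while ckmt1, the mitochondrial form of other tissues, was higher in liver (3.15 ± 0.53, adjusted p = 0.000104). The creatine synthesis gene gamt was higher in liver (1.3 ± 0.23, adjusted p = 2.95e-05). Of 22 muscle transcription factor and turnover genes, 18 were called higher in muscle. The ubiquitin ligase gene trim63a, a mark of muscle protein breakdown, varied widely, from 22 to 307 CPM (median 61.6) in muscle and from 0.693 to 4.01 CPM (median 2.44) in liver (-5.30 ± 0.60, adjusted p = 1.61e-06).

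Oxidative metabolism was higher in muscle across both genomes of the mitochondrion. Of 86 nuclear genes of the respiratory chain, 80 were called higher in muscle and 2 in liver, with a median of -1.45, and of 28 genes of the TCA cycle and pyruvate dehydrogenase 21 were called higher in muscle and 2 in liver. The citrate synthase gene cs ran from 25.7 to 45.0 CPM (median 31.3) in liver and from 129 to 262 CPM (median 163) in muscle (-2.45 ± 0.21, adjusted p = 1.76e-10). The 2 respiratory genes called higher in liver were cox6a1 (2.11 ± 0.32, adjusted p = 7.45e-06) and cox4i2 (1.70 ± 0.19, adjusted p = 2.45e-08), alternative forms of cytochrome oxidase subunits. In the TCA list, suclg2 (3.33 ± 0.22, adjusted p = 1.43e-12), the subunit of succinyl-CoA ligase that uses GTP, and mdh1aa (1.80 ± 0.23, adjusted p = 1.90e-07), a cytosolic malate dehydrogenase, were higher in liver, while mdh1ab was higher in muscle (-4.02 ± 0.23, adjusted p = 7.90e-14). All 13 protein-coding genes of the mitochondrial genome were called higher in muscle, by 0.618 to 1.52 on the log2 scale. The smallest of these differences, that of mt-nd3, was not called without muscle 2, 6 or 8, at -0.51 to -0.45 (edgeR adjusted p = 0.0583 to 0.0827). The cytochrome oxidase gene mt-co1 ran from 6550 to 8978 CPM (median 7651) in liver and from 13830 to 29310 CPM (median 15510) in muscle (-1.3 ± 0.18, adjusted p = 1.40e-06). Collagen and matrix genes were higher in muscle in 14 of 15 cases, with col1a1a at -3.52 ± 0.27, and the exception was the fibronectin gene fn1b (4.19 ± 0.27, adjusted p = 6.90e-13), a plasma protein of hepatocytes in mammals.

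**Figure D4:**
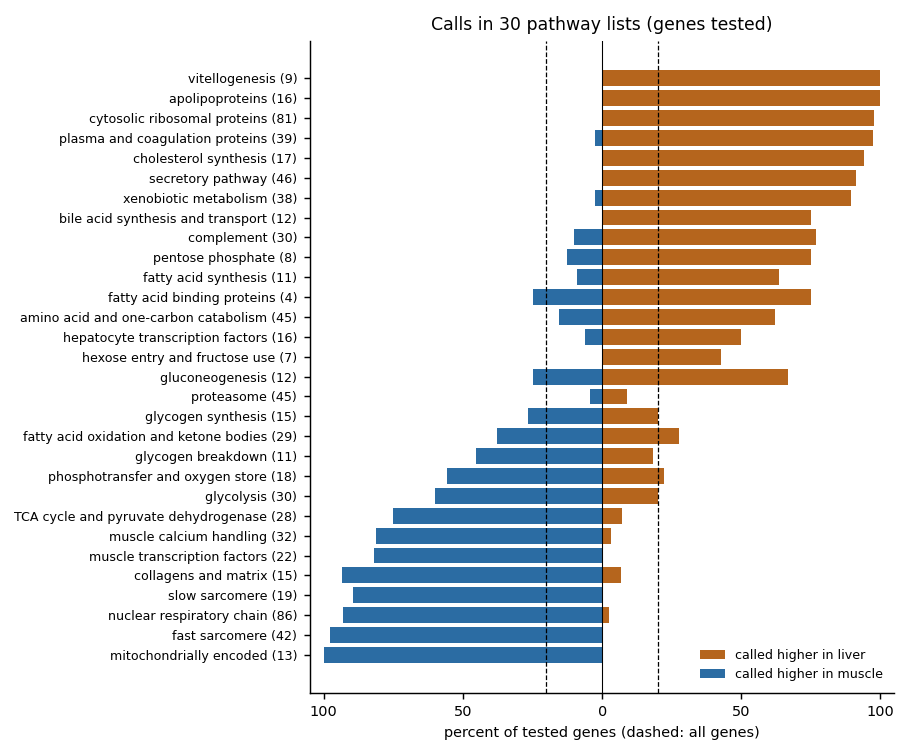
Share of the tested genes of 30 pathway lists called higher in liver (right) or in muscle (left), in percent, with dashed lines at the background of 20.1% and 20.3% over all 12778 genes. Plasma proteins, apolipoproteins, vitellogenesis and ribosomal proteins lie almost wholly on the liver side and sarcomere, respiratory chain and mitochondrially encoded genes on the muscle side.

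A further 330 genes (2.58%) had a 95% interval of the difference within 0.5 of 0 on the log2 scale, the closest to equality that these libraries could show. Among the most counted of them were igsf5b, a cell adhesion gene, at 451 to 778 CPM (median 519) in liver and 543 to 781 CPM (median 592) in muscle (-0.15 ± 0.17, adjusted p = 0.510), and the cyclin gene ccng1, at 327 to 813 CPM (median 371) and 307 to 667 CPM (median 429) (0.00 ± 0.22, adjusted p = 0.997). Both rest on the TMM scale, and with library totals igsf5b was at -1.02 and ccng1 at -0.89.

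Markers of other cell types moved with the tissues as well. All 16 tested exocrine pancreas genes were called higher in liver, with a median of 5.13, and their sum ran from 175 to 4519 CPM in the livers and from 38.4 to 130.8 CPM in the muscles. A gene with under 10 counts in every muscle passed the count minimum only if all 8 livers held 10 or more. For such a gene passing itself set the direction, so the count of 16 is no separate support. Over all 21 pancreas genes in the table, tested or not, the sum ran from 177.8 to 4604 CPM in the livers and from 39.44 to 134.1 CPM in the muscles. The trypsin gene prss59.2 differed by 5.98 ± 0.77 and the elastase gene ela2l by 5.93 ± 0.76. Liver 1 was the highest liver for 13 of these 16 genes and liver 3 the lowest for 15. In many fishes pancreatic tissue lies within or against the liver, and the part of the pancreas genes in other liver differences was not tested. Without muscle 6 and liver 1 together, 9 pancreas genes passed the count minimum and all 9 were called higher in liver, a count under the same limit. Of 8 erythrocyte genes edgeR called 0, as did DESeq2, while limma-voom called 1 and 1 had an unadjusted p under 0.05 in edgeR, and with library totals 6 were called higher in muscle. The anion exchanger gene slc4a1a came closest (-0.90 ± 0.44, adjusted p = 0.104). Of 9 endothelial genes 8 were higher in muscle, with cdh5 at -1.13 ± 0.18, and of 9 Schwann cell and neuron genes 5 were higher in muscle, with mbpb at -3.21 ± 0.22. The Schwann cell and neuron count was 2 or 3 without any 1 of muscles 1 to 6 and 8 or without liver 3. Of 16 oocyte genes 2 were called higher in liver, a share under the background of 20.1%, and 14 were not called. The 2 were h1m (0.81 ± 0.17, adjusted p = 0.000347) and dazl (0.62 ± 0.23, adjusted p = 0.0343). With library totals both turned, h1m to -0.07 and dazl to -0.32, and the call of dazl was lost without muscle 1 or liver 4, 5, 6 or 8 (0.53 to 0.61, edgeR adjusted p = 0.0531 to 0.0702). Between 1 and 5 oocyte genes were called higher in liver when single libraries were left out, the 5 without muscle 8. The oocyte linker histone h1m ran from 969.5 to 1302 CPM of library totals in knockout liver and from 1090 to 1266 in knockout muscle, and from 934.3 to 1707 over all wild-type libraries, so that neither tissue lacked it.

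The knockout libraries gave more testable genes than the wild-type libraries. By the same minimum, 12778 genes passed in the knockouts and 11631 in wild type, and 1326 passed in the knockouts alone. Of these 1326, 189 were called higher in knockout liver and 134 in knockout muscle. Both are smaller shares than the 20.1% and 20.3% over all 12778 genes. In the median of those 189 genes, the highest wild-type liver held 19 counts. The most counted were lss, the lanosterol synthase of cholesterol synthesis, me1, the drug-metabolizing cyp3a65, the pancreatic elastase ela2, g6pca.1 and the clone-named si:ch211-240l19.6. Transcripts of g6pca.1 had 17 to 716 counts in knockout liver and 2 to 59 in wild-type liver, at 27.1 ± 24.4 and 13.3 ± 9.89 CPM of library totals (mean ± SD, n = 8 each). When all 32 libraries were thinned to the shallowest, 8519 genes passed in the knockouts and 9057 in wild type, and 4 of the 189 liver genes still passed. The order of the genotypes thus turned when library totals were made equal. Wild-type livers held 1514099 to 2366219 counts, fewer than any knockout liver.

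How far the tissue difference departed from that of wild type rested on the processing. Over 14577 genes in all 32 libraries, the interaction of genotype and tissue was called positive for 27 genes (0.185%) and negative for 3 (0.0206%). In edgeR 2568 genes had an unadjusted p under 0.05. A positive interaction is a log2 difference of liver over muscle shifted toward liver in the knockouts, and the gap between the tissues can be smaller there. The difference of mt-nd3, for example, was -0.618 in the knockouts and -2.035 in wild type. With library totals 3342 genes were called and the direction turned, with 3317 negative interactions, and DESeq2 called 151 and limma-voom 441. The count also ran from 2 to 68 when single libraries were left out and 6 without both muscles numbered 6. The gene ppdpfb, named for pancreatic progenitor cell differentiation and proliferation, stood at 513.6 ± 245 CPM in knockout liver, 144.4 ± 72.8 in wild-type liver, 47.67 ± 13.9 in knockout muscle and 59.34 ± 11.8 in wild-type muscle (mean ± SD, n = 8 each; interaction 2.15 ± 0.38, edgeR adjusted p = 0.00812). The pyruvate dehydrogenase subunit pdha1a was higher in muscle in both genotypes, by 1.46 in the knockouts and 2.85 in wild type on the log2 scale (interaction 1.44 ± 0.29, edgeR adjusted p = 0.0292). The mitochondrial mt-nd3 behaved likewise, at 3139 ± 569 and 1609 ± 642 CPM in knockout and wild-type liver and 4653 ± 1350 and 6568 ± 1580 CPM in knockout and wild-type muscle (interaction 1.46 ± 0.28, edgeR adjusted p = 0.0184). Also called were smim8, a small membrane protein gene (interaction 1.79), tspo, which encodes a protein of the outer mitochondrial membrane (1.51), and TMEM19 (1.48). When single libraries were left out, smim8 and ppdpfb were called each time, while the call was lost in 2 cases for tspo, 6 for mt-nd3, 11 for pdha1a and 13 for TMEM19 of 32, with interactions of 1.31 to 1.47. With library totals, pdha1a was at 0.66, tspo at 0.68 and TMEM19 at 0.70, none of them called. After thinning, edgeR adjusted p was 0.15 for smim8 and TMEM19, 0.153 for pdha1a and 0.324 for tspo, so that these were not called. The comparisons in knockouts and wild type shared no library.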

How the data were processed

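Polyadenylated RNA of liver and skeletal muscle of gys2 knockout and wild-type female zebrafish was read from 3′ ends by Lasy-Seq, per the labels' protocols, in 4 groups of 8 libraries. The authors deposited 1 table of whole-number counts per gene symbol, not normalized. Salmon 1.10.2, BWA 0.7.17-r1188, fastp 0.23.4 and the build GRCz11 appear, with no role, in the submitters' processing notes. The tool that made the counts, the strand setting and any use of molecular identifiers are not given here, so reads may not be separate molecules. Groups were taken from the labels. They give a number to each sample but not the fish behind it, so p-values measure the spread between these samples.

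All else was computed here in R 4.3.3. Genes with at least 10 counts in 8 or more of the 16 knockout libraries (12778 of 31658) were tested with edgeR 4.0.16 (TMM factors, glmQLFit with robust estimation, glmQLFTest, and glmTreat against a 2-fold minimum), with Benjamini-Hochberg adjustment over all genes tested. The test of whether the tissue difference departed from wild type was the interaction in the same model over all 32 libraries (14577 genes). Levels are CPM of TMM-scaled library sizes unless library totals are named. Because gys2 falls near the minimum, it was tested alone by a two-sided exact permutation test on log2(CPM + 0.5). The procedures were tested on simulated data. Alternatives were DESeq2 1.42.0, limma 3.58.1 (voom), other scalings and filters, removal of vitellogenin genes, thinning, a replicate block and leaving out each library. Leaving out muscle 6 with liver 1, and both muscles numbered 6, was chosen after seeing the data.

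The comparison, gene lists and markers were chosen with earlier results of these data known. Genes were named by a rule: gys2 and gys1, the 10 largest folds and 10 highest levels in each direction among non-overlapping genes of at least 100 CPM past the 2-fold rule, up to 4 members of each list with the smallest p in each direction, enzyme pairs, 6 interaction genes and 6 genes testable in knockouts alone. The rule also took the 6 genes of highest mean CPM with a 95% interval within 0.5 of 0, of which igsf5b and ccng1 are reported. Outside that rule, esr1, rps8b and rps6kal were named after their values were seen. Some genes that the rule names are not reported here. Of the 12778 symbols, 10713 matched a RefSeq symbol or synonym of zebrafish. No sequences are shown, since no genome was used here. Total counts per library ran from 1514099 to 15351773 over the 32 libraries.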

Additional observations from a re-analysis of the deposited data

Results flagged for a closer look

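Within the 8 livers and the 8 muscles, the gap of a library to the nearest other library was divided by the range of the group. A library was picked out where this ratio was above the 95% critical value of Dixon's test. The ratio was taken on log2(CPM + 0.5) for genes and marker sums. For the vitellogenin share of counts it was taken on percent, so that ratio is not directly comparable with the others. Of 314 groups of values examined, 33 were picked out (10.5%). For independent, normally spread groups chance gives about 1 in 20. These groups came from the same libraries and some share genes, so no comparison with chance is drawn.

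Muscle 6 stood highest in 13 of the 33. The gap took 0.928 of the range for the vitellogenin share of counts, which was 2.741% there, and 0.742 for the summed hepatocyte markers. By gene the ratio was 0.881 for tfa, 0.864 for fabp10a, 0.862 for vtg1, 0.8 for crp3, 0.78 for slco1d1, 0.777 for apoc1, 0.758 for ahcy, 0.599 for fads2, 0.567 for c3a.2 and 0.547 for cbln11. It was 0.572 for the summed exocrine pancreas markers. In each of these measures muscle 6 still lay below every liver.

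Liver 1 stood apart in 9. It was the highest liver for eno3 (0.835), the summed hepatocyte markers (0.736), mdh1aa (0.681), slco1d1 (0.634), me1 (0.627), pck2 (0.599), tfa (0.586) and ahsg2 (0.544), and the lowest for pkmb (0.575).

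The other 11 were spread over 8 libraries. In the livers these were ccng1, highest in liver 3 (0.603), pygma, lowest in liver 4 (0.568), and tkta, lowest in liver 8 (0.544). In the muscles, muscle 5 was highest for the summed macrophage markers (0.739) and lowest for oxct1a (0.528), and muscle 7 was highest for igsf5b (0.577) and aldoab (0.56). Muscle 8 was highest for ehhadh (0.668) and lowest for nr5a2 (0.591), muscle 3 was lowest for tktb (0.782) and muscle 2 lowest for hmgcra (0.703).

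The liver-over-muscle difference of 6 genes departed from wild type in the test of the interaction, by 2.15 on the log2 scale for ppdpfb, 1.786 for smim8, 1.513 for tspo, 1.482 for TMEM19, 1.461 for mt-nd3 and 1.44 for pdha1a. In smim8 the level in wild-type muscle was 56.13 ± 12.6 CPM and in knockout muscle 36.32 ± 11.8, beside 22.65 ± 5.78 in knockout and 10.24 ± 4.63 in wild-type liver (mean ± SD, n = 8 each).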

How the results depend on the processing

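With library totals in place of TMM, 9654 genes were called in place of 5157, 1285 higher in liver (780 by the 2-fold rule) and 8369 in muscle (2777), so that 13.3% of calls lay on the liver side in place of 49.7%. At a minimum of 50 counts 3051 were called, 1243 in liver (769 by the 2-fold rule). Each of the 5 counts stayed within 1.5 times under the other alternatives. With single libraries left out, 4430 to 5141 genes were called, 2245 to 2951 in liver (1128 to 1431 by the 2-fold rule) and 1773 to 2600 in muscle (641 to 808). Without muscle 2, 3, 4, 5, 6 or 8 the liver side took 59.3% to 60% of calls. With vitellogenin genes removed it took 58.1%, with 2769 genes called higher in liver and 2000 in muscle. The cause was not tested, and the near-even split of calls holds only for the reported setting and those like it.

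The 30 interaction calls (27 positive, 3 negative) became 151 with DESeq2 (106 and 45), 441 with limma-voom (363 and 78), 18 with DESeq2 size factors (15 positive), 3342 with library totals (3317 negative), 7 with upper-quartile factors (6 and 1), 107 with no filter (82 and 25), 2 after thinning (2 and 0) and 6 without both muscles numbered 6 (6 and 0). At 50 counts 6 were negative. With single libraries left out they ran from 2 to 68 (2 to 63 positive, 0 to 10 negative).

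Replicate numbers were not taken as pairs, since the labels do not give the fish. Deviations of same-numbered liver and muscle correlated by -0.135 to 0.184, over 0.1 in 1 of 8, and 3 of 8 livers correlated best with their own number. These correlations cannot decide whether equal numbers are the same fish. With the replicate block 4767 genes were called (2417 in liver, 2350 in muscle) and 8 interactions (8 and 0). In that setting the calls of ppp1r3ca (edgeR adjusted p = 0.0981) and me1 (0.712) were lost. The interaction calls of pdha1a (edgeR adjusted p = 0.0612) and TMEM19 (0.0829) were lost there too.

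The difference of gys2 turned to -0.335 with library totals and was 0.0581 to 0.363 with single libraries left out. Other directions that turned were ccng1 (-0.885 with library totals, -0.061 upper quartile, -0.031 at 50 counts, -0.085 thinned, -0.022 blocked, and -0.18 without liver 3 to 0.129 without muscle 8), me1 (-0.151 with DESeq2, -0.232 without liver 1 to 3.678 without muscle 4, -0.301 without liver 1 and muscle 6), tspo (-0.68 with library totals, -0.008 thinned), dazl (-0.323), h1m (-0.065), khk (-0.012) and rps6kal (-0.621), the last 4 with library totals. Depth limits genes near the minimum: thinned to the shallowest library, 10527 genes could be tested.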

Other observations

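Marker sums of 2 immune cell types stood high in few libraries, that of macrophages in muscle 5 and that of neutrophils in livers 7 and 8. Summed over 15 macrophage markers, muscle 5 stood at 1860 CPM and the other 7 muscles at 397 to 594.3, while the livers ran from 353.6 to 693.4. Of 11 macrophage markers tested with edgeR, 6 were called higher in muscle and 1 in liver, and without muscle 5 the muscle count was 1. The lysozyme gene lyz, of macrophages and neutrophils, ran from 2.41 to 8.38 CPM (median 4.99) in muscle and from 0.268 to 2.85 CPM (median 1.06) in liver (-1.97 ± 0.42, edgeR adjusted p = 0.000386).

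The chemotactic factor gene lect2l, listed here as a neutrophil marker, ran from 5.36 to 611 CPM (median 25) in liver and from 1.43 to 5.95 CPM (median 2.90) in muscle (5.72 ± 1.11, edgeR adjusted p = 0.000656). Without liver 8 its difference was 4.99. Summed over 7 neutrophil markers, livers 7 and 8 stood at 544.9 and 621.9 CPM and the other 6 livers at 18.75 to 58.87; livers 7 and 8 were also the highest for itln3 and cbln11. In the library with the highest sum, lect2l made up 611 of the 621.9 CPM.

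The keratin genes krt5 and krt92 of surface epithelia went in opposite directions. Of 11 epidermal markers tested, 6 were called higher in muscle, against a background of 20.3%, and 2 in liver, a share near the background of 20.1%. The basal keratin krt5 ran from 4.76 to 65.0 CPM (median 9.88) in muscle and from 0 to 1.4 CPM (median 0.911) in liver (-4.88 ± 0.76, edgeR adjusted p = 6.03e-05), while krt92 ran from 7.64 to 39.2 CPM (median 12.3) in liver and from 0 to 2.39 CPM (median 0.489) in muscle (4.71 ± 0.53, edgeR adjusted p = 1.16e-07; 5.63 without muscle 6). Of 10 fibroblast and stellate cell markers, 9 were called higher in muscle and 1 in liver, with sums of 539.5 to 1853 CPM over the muscles and 91.3 to 129.6 over the livers.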
